A study of Mus musculus with 6 samples.

Results

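The fibroblast growth factor (FGF) genes described here are 5 ligands (*Fgf8*, *Fgf5*, *Fgf4*, *Fgf15* and *Fgf3*), 2 receptors (*Fgfr1* and *Fgfr2*) and 3 feedback inhibitors of ERK signalling (*Dusp6*, *Spry2* and *Spry4*). They were taken by symbol from the 15266 genes listed for day 4 embryoid bodies (D4 EBs), and all 10 were present and passed the filter on low counts that left 12891 genes. EBs of 2 mouse ESC lines made from W9.5 cells were compared, each kept in serum with LIF withdrawn for 4 days, with 3 replicates per line. The EVX1-Δfs line is 1 clone (clone 14) with small frameshifts on both alleles of the homeodomain exon of *Evx1*, and *Evx1as* is left in place. In the Del#3 line about 2.6 kb was removed from the *Evx1/Evx1as* locus with a pair of guides, so both lines lack functional EVX1, and EBs of unedited W9.5 cells were not analysed here. The comparison therefore asks whether loss of the locus, including the antisense transcript, changes FGF pathway genes beyond what the frameshift line shows. Each replicate was set up on a different day with the lines side by side, and libraries of the same replicate number are taken here to share a day, although their titles name none. For replicates 2 and 3 the values do not show this match, so day and same-day below mean the replicate number. Replicates are separate differentiations of the same lines, and p-values measure the spread between differentiations and not between clones.

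FGF ligands bind receptor tyrosine kinases together with heparan sulphate and signal through RAS and the kinases RAF, MEK and ERK. Active ERK induces its own inhibitors, among them the phosphatase DUSP6, which dephosphorylates ERK, and the Sprouty proteins, which act on the relay from receptor to RAF. In the gastrulating embryo FGF signalling is needed for cells to leave the primitive streak and form mesoderm, and *Fgf4* and *Fgf5* mark the epiblast before and around that time.

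Reads on listed genes numbered 9024579 to 15699124 per EVX1-Δfs library and 9729013 to 12231851 per Del#3 library, and the 10 genes had from 60 reads (*Fgf4* in Del#3 replicate 3) to 4511 reads (*Fgfr1*). Replicate 1 had the most reads in each line (15699124 and 12231851), against 9024579 to 9802928 in the other libraries. The labels held: *Evx1* had 2582 to 4023 reads in EVX1-Δfs and 28 to 48 in Del#3, and *Evx1as* had 571 to 879 and 21 to 30. Markers of the epiblast, the primitive streak and the endoderm were present in both lines. So were those of blood and endothelium, with sums of 2786 to 3455 normalized counts in EVX1-Δfs and 2361 to 3710 in Del#3. In contrast, 3 neurectoderm genes were listed with a summed level of 13.9 to 22.4 normalized counts per library, of which none passed the filter. EBs are a mixture of cells, so fewer cells of a type and less RNA per cell cannot be told apart.

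*Fgf3*, *Fgf4* and *Fgf15* lie in that order on the plus strand of chromosome 7, within 62871 bp of build NCBIM37 (mm9). *Fgf3* is at chr7:152023988-152030341, *Fgf4* at chr7:152047291-152051148 and *Fgf15* at chr7:152082437-152086858, with 16949 bp between *Fgf3* and *Fgf4* and 31288 bp between *Fgf4* and *Fgf15*. The other ligands are apart from them, *Fgf8* at chr19:45811288-45817405 on the minus strand and *Fgf5* at chr5:98683203-98706049 on the plus strand. *Fgfr1* is at chr8:26624126-26686186 (plus strand) and *Fgfr2* at chr7:137306026-137410322 (minus strand). Of the feedback genes, 2 are at chr10:98725865-98730122 (*Dusp6*, plus strand) and chr14:106291166-106296036 (*Spry2*, minus strand). Counts per gene do not separate these genes from a long non-coding gene on the opposite strand that overlaps *Fgf15*, nor from one that overlaps *Fgfr1*, unless strand was used in counting. A further entry of the annotation, also named *Fgfr1* and on the same strand, overlaps *Fgfr1* and could not be separated by strand.

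Promoter sequences of RefSeq, from 250 bases before to 50 after each start in build GRCm38.p6, were matched for 6 of the 10 genes. Those of *Fgf4* and *Fgf3* are shown because the pair are neighbours and *Fgf4* had the largest fold change between the lines, that of *Fgf5* because it shares motifs with *Fgf4*, and that of *Dusp6* as an ERK-induced gene. All 4 are on the plus strand, at chr7:144861136-144861435 for *Fgf4*, chr7:144838362-144838661 for *Fgf3*, chr5:98253934-98254233 for *Fgf5* and chr10:99262981-99263280 for *Dusp6*. Capitals mark every match, on either strand, to the GC box GGGCGG or to the TATA motif TATANA.
Fgf4: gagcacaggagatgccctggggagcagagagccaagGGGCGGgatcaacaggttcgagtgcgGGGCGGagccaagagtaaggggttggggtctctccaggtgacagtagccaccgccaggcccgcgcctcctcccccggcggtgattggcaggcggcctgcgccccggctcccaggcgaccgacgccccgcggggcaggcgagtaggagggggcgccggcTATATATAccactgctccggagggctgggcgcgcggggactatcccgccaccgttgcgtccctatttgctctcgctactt
Fgf3: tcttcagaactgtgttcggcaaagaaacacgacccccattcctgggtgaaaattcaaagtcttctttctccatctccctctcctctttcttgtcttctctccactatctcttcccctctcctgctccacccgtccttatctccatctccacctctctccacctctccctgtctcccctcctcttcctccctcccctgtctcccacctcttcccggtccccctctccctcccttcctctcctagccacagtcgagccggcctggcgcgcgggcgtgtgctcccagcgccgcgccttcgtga
Fgf5: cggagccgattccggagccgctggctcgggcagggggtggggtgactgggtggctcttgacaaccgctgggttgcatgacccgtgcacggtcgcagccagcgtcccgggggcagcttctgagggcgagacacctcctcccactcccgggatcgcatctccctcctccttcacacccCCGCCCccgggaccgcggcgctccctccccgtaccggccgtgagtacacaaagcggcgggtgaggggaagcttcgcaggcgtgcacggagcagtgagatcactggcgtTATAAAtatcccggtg
Dusp6: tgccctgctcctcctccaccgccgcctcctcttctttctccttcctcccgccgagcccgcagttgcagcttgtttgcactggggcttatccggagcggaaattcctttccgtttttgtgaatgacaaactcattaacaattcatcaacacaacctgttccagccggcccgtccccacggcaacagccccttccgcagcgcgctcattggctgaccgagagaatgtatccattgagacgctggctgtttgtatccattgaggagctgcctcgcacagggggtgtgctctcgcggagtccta

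The *Fgf4* promoter held 2 GC box matches and 2 overlapping TATA matches, and that of *Fgf5* held 1 of each, whereas the other 4 promoters matched held neither. The TATA match of *Fgf5* lay after the annotated start, whereas those of *Fgf4* lay before it. Among all 32851 promoters of the same length, 35.7% held a GC box match and 24.7% a TATA match. The letters CCGGAAG, bound by ETS factors such as those induced by ERK, were in 0 of the 6 promoters and in 8.86% of all promoters, and the AP-1 letters TGANTCA were in 0 of the 6 and in 7.81% of all. These matches describe the letters in this window only.

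None of the 10 genes passed the threshold between Del#3 and EVX1-Δfs (limma with Benjamini-Hochberg adjustment, adjusted p = 1.00 for each gene), where 0.0155% of all genes tested did. Without adjustment, 0 of the 10 had a p-value under 0.05 by limma (1.03% of all genes), by edgeR (1.12%) or by DESeq2 (1.33%). The 3 libraries of the lines overlapped for all 10 genes, whereas they did not overlap for 3.51% of all genes. Intervals of the difference were narrow enough to limit it: for 9 of the 10 genes the 95% interval lay within a 2-fold change either way, against 61.1% of all genes tested, and *Fgf4* was the exception. Fold changes below are on the scale of log2(normalized count + 1), and a positive value means higher in Del#3.

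With the replicate number added to the model as a block for day, no call was gained among the 10. Limma then called 0 of the 10 (0.0233% of all genes), and 0 had an unadjusted p-value under 0.05 (4.62% of all genes), while the interval lay within a 2-fold change for 9 of the 10 (76.2% of all genes), again without *Fgf4*. DESeq2 called 0 of the 10 with its Wald test (0.0233% of all genes) and 0 with the block (0.0698%). None of the 10 was higher in Del#3 on 3 of 3 days, where 12.1% of all genes were.

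**Figure D1:**
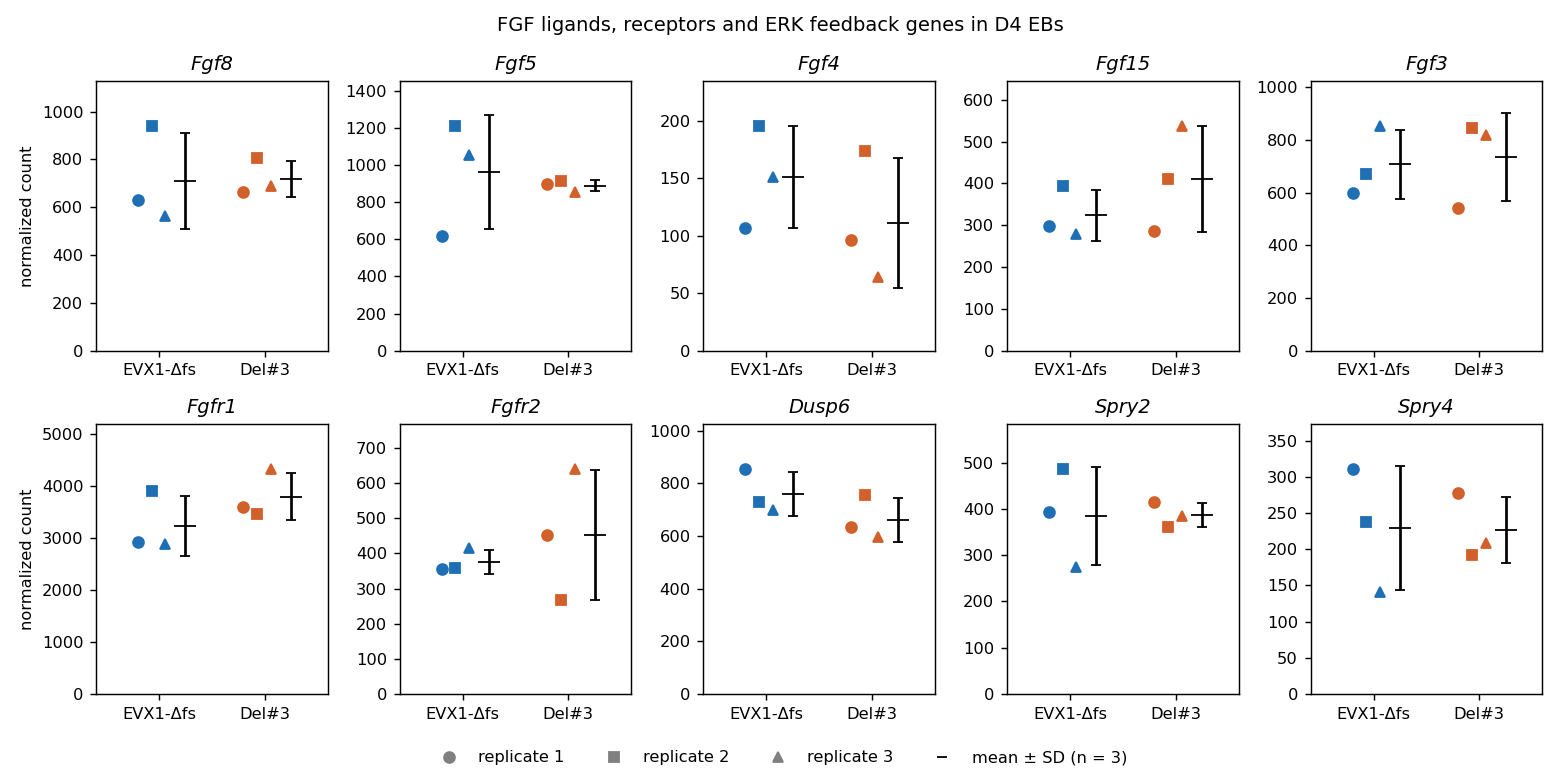
Normalized counts of each of the 10 genes in the 3 EVX1-Δfs (blue) and 3 Del#3 (orange) libraries, with 1 symbol per replicate number and, beside them, the mean ± SD (n = 3). The points of the lines overlap in every panel. The 3 Del#3 values of *Fgf5* and *Spry2* lie closer together than those of EVX1-Δfs, and those of *Fgfr2* and *Fgf15* lie further apart.

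*Fgf8*, which is made in the primitive streak and is needed there for cells to migrate, was at nearly the same mean level in the lines. In replicates 1 to 3 it had 631, 939.9 and 562 normalized counts in EVX1-Δfs and 664, 806 and 688 in Del#3, with means of 711 ± 201 and 719 ± 76.0 (SD, n = 3 each). The highest and the lowest library were both EVX1-Δfs (replicates 2 and 3), and the Del#3 values all lay between them. The fold change was 0.05 (SE 0.26, 95% interval -0.53 to 0.62).

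*Fgf5*, a marker of the primed epiblast, had 618, 1211 and 1054 normalized counts in EVX1-Δfs and 896, 914 and 857 in Del#3. All 3 Del#3 values again fell inside the range of EVX1-Δfs, whose SD was 307 around a mean of 961, against 29.3 around 889 in Del#3. Its fold change was -0.06 (SE 0.28, interval -0.67 to 0.56), and the same-day differences were 0.53, -0.41 and -0.30, so the direction was not shared by the days.

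*Fgf4*, the ligand by which pluripotent cells signal through FGF receptors, showed the largest difference of the 10 and the fewest reads. Its normalized counts were 107, 196 and 151 in EVX1-Δfs (162, 167 and 128 reads) and 96.4, 174 and 64.1 in Del#3 (121, 150 and 60 reads). The mean was 151 ± 44.4 in EVX1-Δfs and 112 ± 56.6 in Del#3, and the values overlapped because Del#3 replicate 2 exceeded 2 of the EVX1-Δfs libraries. Del#3 was the lower library on 3 of 3 days, which 11% of all genes tested were and which only *Fgf4* was among the 10, but the same-day differences were uneven at -0.15, -0.17 and -1.23. The fold change was -0.51 (SE 0.40, interval -1.41 to 0.38), which as a ratio is 0.700 with bounds of 0.377 and 1.30. In the blocked fit the interval was -1.14 to 0.12 (limma, adjusted p = 0.992).

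The size of the *Fgf4* difference rested on single libraries. It was -0.18 without Del#3 replicate 3 and -0.31 without EVX1-Δfs replicate 2, and -0.89 without Del#3 replicate 2. It was -0.74, -0.49 and -0.47 without EVX1-Δfs replicate 1, EVX1-Δfs replicate 3 and Del#3 replicate 1. Of 5 pluripotent epiblast markers, *Pou5f1* (4444 normalized counts) and *Sox2* (623) were lowest in Del#3 replicate 3, where *Fgf4* was lowest too, whereas *Nanog*, *Utf1* and *Dnmt3b* were lowest in EVX1-Δfs replicate 1. Their summed level was 17371, 25508 and 20937 normalized counts in EVX1-Δfs and 20694, 26749 and 15697 in Del#3. None of these markers differed between the lines by limma at the threshold, and their part in the *Fgf4* value was not tested.

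*Fgf15*, a ligand expressed in the primitive streak and later in neural tissue and gut, had 298, 394 and 280.0 normalized counts in EVX1-Δfs and 285, 409.9 and 537 in Del#3. Its means were 324 ± 61.1 and 411 ± 126, and the lines were close to each other on 2 of the 3 days (differences of -0.06 and 0.06). The third day differed by 0.94. Over all libraries the fold change was 0.31 (SE 0.30, interval -0.34 to 0.96), and without single libraries it ranged from 0.09 (Del#3 replicate 3) to 0.55 (Del#3 replicate 1).

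*Fgf3*, which acts in the posterior primitive streak and tail bud, had 599, 670.4 and 853 normalized counts in EVX1-Δfs and 541, 844 and 817 in Del#3. Its means of 708 ± 131 and 734 ± 168 differed by less than either SD. The fold change was 0.04 (SE 0.26, interval -0.54 to 0.63), with same-day differences of -0.15, 0.33 and -0.06. In both lines replicate 1 was the lowest of the 3.

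*Fgfr1*, the main FGF receptor of the epiblast and of migrating mesoderm, had the most reads of the 10 genes. Its values were 2919.8, 3900.3 and 2878 normalized counts in EVX1-Δfs and 3595, 3464 and 4318 in Del#3. Replicate 2 of EVX1-Δfs exceeded 2 of the Del#3 libraries, and the means were 3233 ± 579 and 3792 ± 460. The fold change was 0.24 (SE 0.23, interval -0.27 to 0.74).

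*Fgfr2*, a receptor known from the trophectoderm and primitive endoderm and from epithelia, had 356, 357 and 416 normalized counts in EVX1-Δfs and 451, 268 and 639.7 in Del#3. The EVX1-Δfs libraries were close together (376 ± 34.2) and the Del#3 libraries spread on both sides of them (453 ± 186). The fold change of 0.18 (SE 0.32, interval -0.53 to 0.89) became -0.11 without Del#3 replicate 3. Summed extraembryonic endoderm markers ranged from 1236 to 1780.0 normalized counts in EVX1-Δfs and from 1239 to 1597 in Del#3, with *Gata4* and *Gata6* the largest terms. *Ttr* had 22.4 to 69.3, *Apoa1* 5.3 to 106, *Sox7* 20.1 to 39.6 and *Afp* 1.2 to 4.3 normalized counts per library, and of the 5 that passed the filter (all but *Afp*) 0 were called between the lines by limma, with fold changes from -0.14 (*Gata6*) to 0.72 (*Ttr*). Of the trophectoderm markers *Elf5* was near 0 (0.8 to 3.5 normalized counts per library), *Tfap2c* and *Gata3* had 132 to 332, and *Krt8*, which other epithelia also make, had 7844 to 12483, so a sum over that list would be a reading of *Krt8* alone.

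*Dusp6*, the ERK phosphatase, had 853, 728 and 697 normalized counts in EVX1-Δfs and 635, 756 and 595 in Del#3. Its means were 759 ± 82.8 and 662 ± 83.8, and the single Del#3 library above the lowest EVX1-Δfs library was replicate 2. The fold change was -0.20 (SE 0.23, interval -0.70 to 0.31), lower on 2 of 3 days.

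The Sprouty genes had nearly equal means in the lines. *Spry2* had 395, 486 and 275 normalized counts in EVX1-Δfs and 415, 362 and 384 in Del#3 (385 ± 106 and 387 ± 26.6), a fold change of 0.04 (SE 0.27, interval -0.56 to 0.65). *Spry4*, at chr18:38745922-38760922 on the minus strand, had 311, 238 and 141 normalized counts in EVX1-Δfs and 278, 193 and 208 in Del#3 (229.8 ± 85.4 and 226 ± 45.5). Its fold change was 0.03 (SE 0.33, interval -0.71 to 0.78), and the sign turned to -0.01 by edgeR and -0.02 by DESeq2. For both genes all 3 Del#3 values lay inside the range of EVX1-Δfs.

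**Figure D2:**
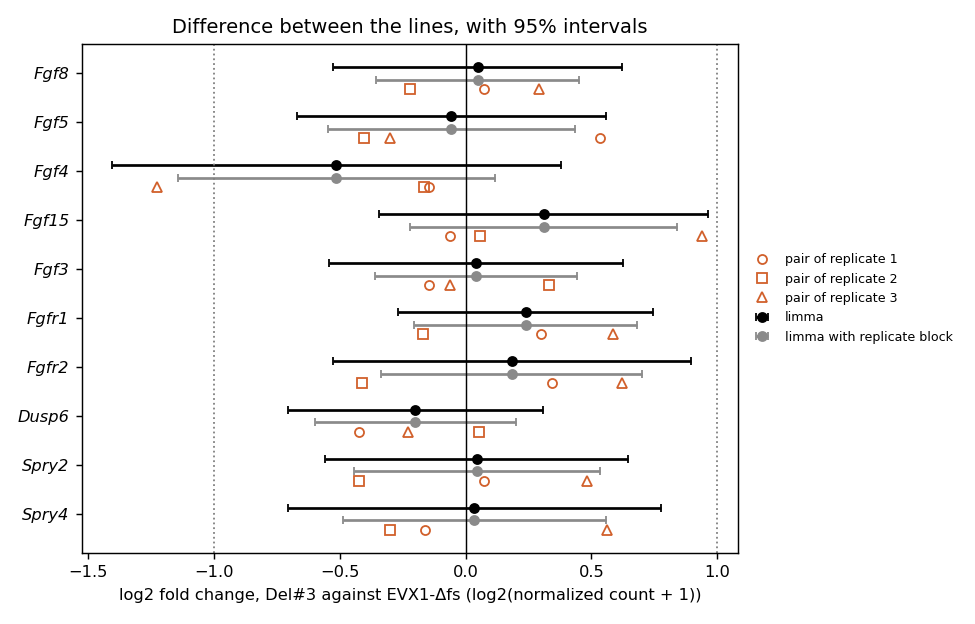
Fold change of each gene on the log2 scale, Del#3 against EVX1-Δfs, with its 95% interval by limma and the 3 same-day differences. Every interval spans 0, and that of *Fgf4* reaches furthest below it, to -1.41.

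As a group the 10 genes had a median fold change of 0.04, where that of all genes tested was 0.00, and a median absolute fold change of 0.12 against 0.16. Of the 10, 7 were above 0 and 3 below, and for 7 the highest library was under 2 times the lowest. The exceptions were *Fgf4* (3.05 times), *Fgfr2* and *Spry4* (2.21 times).

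Per length of the longest coding transcript, which allows genes to be compared, *Fgfr1* stood highest and *Fgf4* and *Spry4* lowest. With merged exons as the length, *Fgf8* stood highest instead. In RPKM, all reads of the gene scaled to the length of its longest coding transcript and to the library's reads, *Fgfr1* had 60.5 ± 11.9 in EVX1-Δfs and 72.7 ± 10.7 in Del#3, and *Fgf8* had 57.0 ± 17.2 and 58.5 ± 2.42. *Fgf5* followed at 35.7 ± 11.0 and 33.9 ± 2.44, then *Fgf3* at 28.5 ± 3.96 and 30.2 ± 5.29 and *Dusp6* at 25.4 ± 3.74 and 22.5 ± 1.93. On the same scale *Fgf15* and *Spry2* were close, with 16.7 ± 3.50 and 17.3 ± 5.24 in EVX1-Δfs and 21.5 ± 6.23 and 17.8 ± 2.53 in Del#3. *Fgfr2* had 8.29 ± 0.389 and 10.3 ± 4.45, *Spry4* 4.72 ± 1.92 and 4.76 ± 1.30, and *Fgf4* 4.65 ± 1.36 and 3.46 ± 1.54.

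Neighbours in this order had overlapping ranges over the 6 libraries. Within libraries the order was firmer for some: *Spry2* was above *Fgfr2* in 6 of 6 libraries, and *Fgfr2* above *Spry4* in 6 of 6 (3 of 6 with merged exons as the length), whereas *Fgf5* and *Fgf3*, *Fgf15* and *Spry2*, and *Spry4* and *Fgf4* each changed places in 3 of 6. *Fgfr1* was above *Fgf8* in 5 libraries, but with merged exons this held in 1 library only, so the order of those genes depends on the length used. *Fgfr1* exceeded *Fgfr2* in each library, by 5.71 to 10.9 times (median 6.85), and *Spry2* exceeded *Spry4* by 2.79 to 4.50 times (median 4.10). Of the neighbouring ligand genes on chromosome 7, *Fgf3* exceeded *Fgf4* by 4.51 to 16.8 times (median 7.39).

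**Figure D3:**
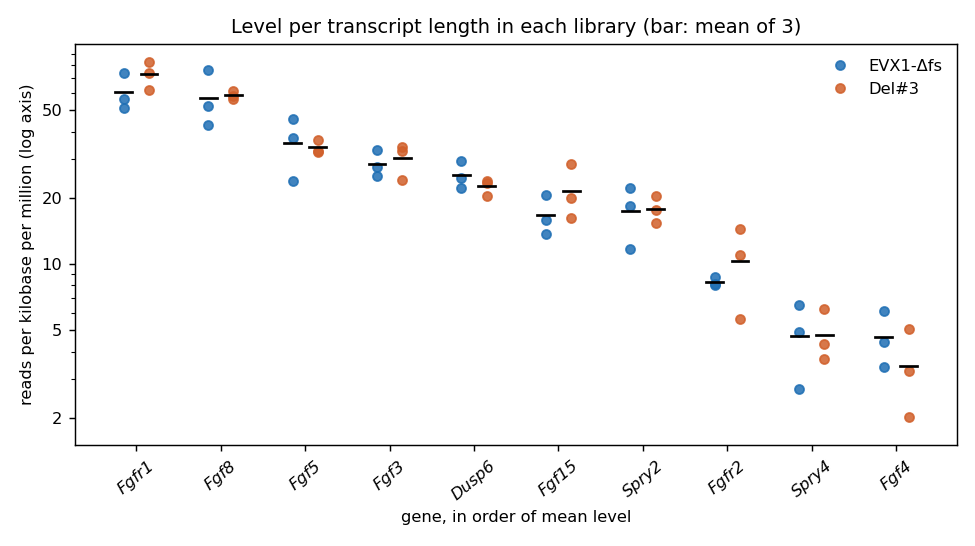
Level of each gene in RPKM (log axis), with 1 point per library, EVX1-Δfs in blue and Del#3 in orange, and a bar for the mean of 3. Genes run from *Fgfr1*, with means of 60.5 and 72.7, down to *Fgf4*, with 4.65 and 3.46.

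The 6 libraries were also compared by day, taking libraries of the same replicate number as set up together. The values do not show this match for replicates 2 and 3. Deviations of same-numbered libraries from their line's mean correlated at 0.74, 0.32 and -0.05 for replicates 1 to 3. For EVX1-Δfs replicate 3 with Del#3 replicate 2 the correlation was 0.42. Per degree of freedom (2 for day, 1 for line), day had the larger mean square for 7 of the 10 genes, against 78.2% of all genes tested. The exceptions were *Fgf15* (18.3% of the sum of squares per degree of freedom for day, 20.7% for line), *Fgfr1* (6.48% and 32%) and *Dusp6* (15.4% and 35.1%). In the F test of day by limma, 0 of the 10 passed the threshold where 4.24% of all genes did, and by edgeR and DESeq2 the count was also 0 (3.58% and 10.1% of all genes). Without adjustment 1 of the 10, *Fgf4*, had a p-value under 0.05 by limma (27.7% of all genes), the same gene did by edgeR (26.9%) and 0 did by DESeq2 (22.7%).

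*Fgf4* averaged 102, 185 and 108 normalized counts on the days of replicates 1 to 3, here days 1 to 3, so that day 2 was 1.82 times the lowest day (limma, adjusted p = 0.173). *Fgf8* was likewise highest on day 2, with 647, 873 and 625 (adjusted p = 0.261 by limma). *Fgf3* had 570.2, 757 and 835, a range of 1.46 times in which day was 82.7% of the sum of squares, and its adjusted p was 0.228 by limma. *Spry4* ran the other way, with 294, 215 and 174 (adjusted p = 0.206 by limma), and *Fgfr2* was lowest on day 2 with 403, 313 and 528 (adjusted p = 0.229 by limma). Leaving out 1 library leaves a single library on that day, so calls between days from such fits are not given.

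EVX1-Δfs replicate 3 was the lowest of the 6 libraries for 5 of the 10 genes (*Fgf8*, *Fgf15*, *Fgfr1*, *Spry2* and *Spry4*), as it was for 18.3% of all genes tested. EVX1-Δfs replicate 2 was the highest for 4 (*Fgf8*, *Fgf5*, *Fgf4* and *Spry2*), as it was for 12.8% of all genes. Del#3 replicate 3 was the lowest for 2 (*Fgf4* and *Dusp6*), as it was for 10.7% of all genes, and EVX1-Δfs replicate 1 for *Fgf5*, as it was for 12.8%. Of the other genes, *Fgf15*, *Fgfr1* and *Fgfr2* were highest in Del#3 replicate 3, *Dusp6* and *Spry4* in EVX1-Δfs replicate 1 and *Fgf3* in EVX1-Δfs replicate 3.

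**Figure D4:**
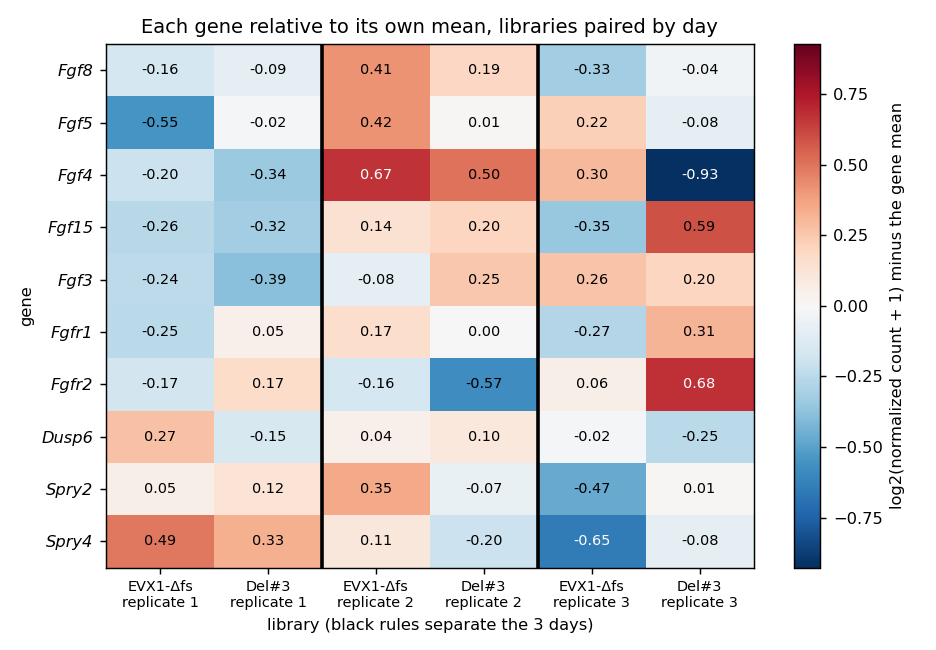
Each gene in each library on the log2 scale relative to its own mean over the 6 libraries, with the libraries of a day side by side, red above and blue below the mean. *Fgf4*, *Fgf8* and *Fgf15* of EVX1-Δfs replicate 2 are above their means by 0.67, 0.41 and 0.14.

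The rest of the pathway was read from 6 lists of 91 genes, of which 81 were listed and 72 passed the filter. By limma 0 of the 72 rose and 0 fell between the lines, and *Ndst1* was the 1 gene with p under 0.05 before adjustment, as 1.03% of all genes had. In the blocked fit 5 of the 72 had such a p, where 4.62% of all genes did: *Fgfbp1*, *Braf*, *Ndst1*, *Hs6st2* and *Sulf1*, with adjusted p-values from 0.693 to 0.992 by limma. Of the other ligands, 4 of 17 passed the filter, with a median fold change of 0.23 between -0.28 and 0.31. *Fgf13*, an intracellular FGF-like protein, had 140.4 ± 44.3 normalized counts in EVX1-Δfs and 169.9 ± 33.7 in Del#3, and *Fgf9*, a secreted ligand, had 169 ± 68.7 and 140.4 ± 64.0. The 9 other receptors and co-receptors tested had a median of 0.15, and the heparan sulphate proteoglycan gene *Gpc3* had the highest counts, with 8375 ± 1110 and 7499 ± 1704 normalized counts, followed by *Sdc1* with 882 ± 132 and 978 ± 86.0.

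All 18 genes of the signal relay were tested, with a median fold change of 0.04. *Ptpn11*, the phosphatase SHP2 that couples receptors to RAS, had 3182 ± 519 and 3173 ± 432 normalized counts, and *Mapk3*, an ERK kinase, had 3106 ± 502 and 3135 ± 647. The 15 other feedback inhibitors had a median of 0.04, in which the phosphatase genes *Dusp9* (2749 ± 512 and 2934 ± 1027 normalized counts) and *Dusp4* (1929 ± 285 and 1781 ± 416) had the highest counts. The 14 ERK-induced transcription factors tested had a median of 0.13, and *Ier2* had 1905 ± 459 and 1912 ± 604 and *Jun* 1009 ± 135 and 1129 ± 105 normalized counts. EVX1-Δfs replicate 3 was the lowest library for 6 of these 14, for 4 of the 9 receptors and co-receptors, 3 of the 18 relay genes, 3 of the 15 feedback inhibitors, 2 of the 12 heparan sulphate genes and 1 of the 4 ligands, in all 19 of 72, where it was the lowest for 18.3% of all genes.

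Between days, 2 of the 72 passed the threshold by limma, where 4.24% of all genes did: *Braf*, a RAF kinase (adjusted p = 0.0493), and *Nf1*, which inactivates RAS (adjusted p = 0.0496). Both were highest in replicate 1 of each line, *Nf1* with 230.3 and 255 normalized counts in EVX1-Δfs and Del#3 replicate 1 against 49.6 to 129 in the other libraries. *Braf* had 463 and 779 normalized counts in the replicate 1 libraries and 199 to 492 in the others, so that its ranges met. Replicate 1 was also the deepest library of each line, and the part of depth was not tested.

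**Figure D5:**
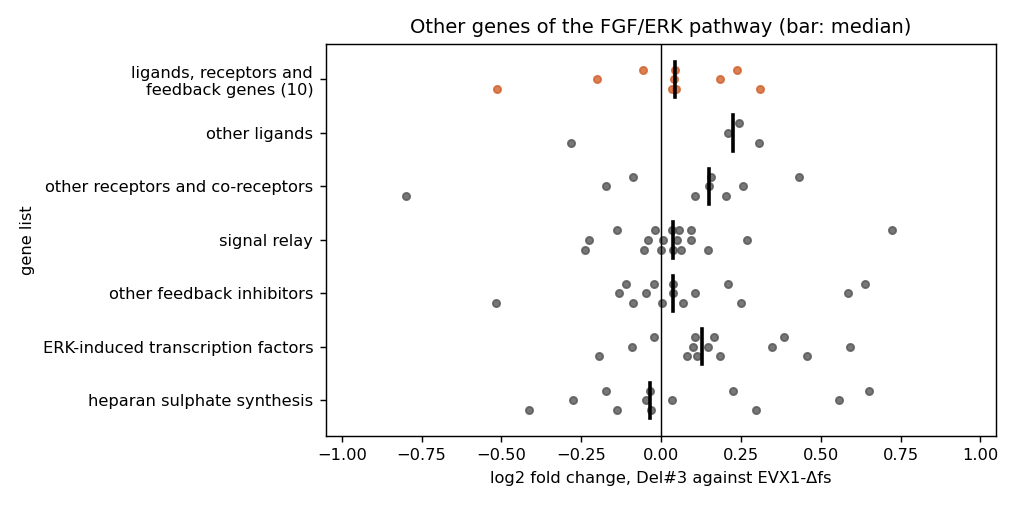
Fold changes on the log2 scale, Del#3 against EVX1-Δfs, of the genes tested in each list and of the 10 genes described, with 1 point per gene and a bar for the median. The medians lie between -0.03 and 0.23.

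For *Fgf8*, *Fgf5* and *Dusp6*, the genes whose profile over the 6 libraries was closest were sought among 9122 genes with a mean of at least 100, by the root mean square difference on the log2 scale after centring. *Igsf8* (0.061), *Map4k1* (0.069) and *Abca2* (0.076) were closest to *Fgf8*, whose own SD over the libraries was 0.24. *Slc27a2* (0.030), *Vsig10* (0.084) and *Pfkfb3* (0.10) were closest to *Fgf5*, with an SD of 0.30. *Cops7b* (0.033), *Mixl1* (0.044) and *Trim27* (0.048) were closest to *Dusp6*, with an SD of 0.17. *Mixl1* is a primitive streak gene. With 6 libraries and this many candidates, some close profile was found for each gene.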

How the data were processed

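mRNA-seq of D4 EBs was analysed from 1 deposited table. Ion Proton reads had been mapped (mm9; TopHat2, then TMAP) and assigned to genes with HTSeq by the authors, who used DESeq2 for normalization and testing. The signal values deposited by the authors are counts divided by a size factor for each library. In each library 100% of values were whole multiples of 1 step (tolerance 0.02 reads), which gave back the reads. The annotation used for counting was not given in the sources used here. HTSeq's standard settings count by strand, and whether the libraries kept strand was not checked.

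Lines were compared with limma (version 3.58.1, R 4.3.3) after log2 transformation with a pseudocount of 1 and a trend of variance on intensity. The filter filterByExpr of edgeR (version 4.0.16, minimum count 10) left 12891 genes, with Benjamini-Hochberg adjustment over all of them and a threshold of 0.05. Days were tested by an F test of the replicate number in a model with line. On the recovered reads, edgeR's quasi-likelihood test and the Wald test of DESeq2 (version 1.42.0) called 2 and 3 genes between the lines. Alternatives were TMM factors, total reads, no filter or 10 reads in every library, pseudocounts of 0.1 and 5, a threshold of 0.1, the replicate block and leaving out each library. Merged exon length was an alternative chosen after seeing the data. The tests were tried on simulated data first.

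Levels per length (RPKM) used the reads on listed genes as the library total and transcript lengths of the GENCODE annotation of NCBIM37, without read-through transcripts. The series' description gives side-by-side differentiations, each on a different day. Deviations of same-numbered libraries from their line's mean correlated at 0.74, 0.32 and -0.05 across genes for replicates 1 to 3, and those of the 6 differently numbered pairs at -0.66 to 0.42. The highest of these were EVX1-Δfs replicate 3 with Del#3 replicate 2 (0.42) and EVX1-Δfs replicate 2 with Del#3 replicate 3 (0.25). The titles number the replicates and name no day, so that libraries of the same number share a day was taken from the series' description, and for replicates 2 and 3 the values do not show it. The genes and lists were chosen with earlier results of these data known. From each list the 2 genes with the highest mean were named, and any gene called. *Ndst1*, *Etv5* and the other genes listed at an unadjusted p were chosen after their values were seen. Exact permutation tests of 3 libraries against 3 cannot go below p = 0.1 and are not given. Intervals cover the spread between libraries, not counting error alone.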

Additional observations from a re-analysis of the deposited data

How the results depend on the processing

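None of the 10 genes was called between the lines under any alternative, with adjusted p-values from 0.992 to 1.00. Fold changes of *Fgf4*, *Fgf15*, *Fgfr1* and *Dusp6* kept their direction in every alternative, and without 1 library they ranged from -0.89 to -0.18, 0.09 to 0.55, 0.14 to 0.38 and -0.30 to -0.11. The others turned when 1 library was left out: *Fgf8* from -0.10 to 0.27, *Fgf5* from -0.35 to 0.14, *Fgf3* from -0.074 to 0.25, *Fgfr2* from -0.11 to 0.52, *Spry2* from -0.18 to 0.23 and *Spry4* from -0.28 to 0.29. *Spry4* was also at -0.01 by edgeR (-0.0059) and -0.02 by DESeq2 (-0.022). The cause was not tested. With the replicate block, limma called 3 genes between the lines against 2 without it, edgeR 3 against 2 and DESeq2 9 against 3, and none was among the 10. Between days 546 genes were called, against 334 with TMM factors, 317 with total reads, 1298 by DESeq2 and 1603 at an adjusted p under 0.1, and 197 to 3175 without 1 library. Of the 10 genes 0 to 1 were called between days without 1 library. With merged exons as the length, *Fgfr1* had 37.5 and 45.0, *Fgfr2* 4.72 and 5.89 and *Fgf8* 49.3 and 50.6 RPKM in EVX1-Δfs and Del#3. With 3 libraries per line, differences of *Fgf4* up to the bounds of its interval could not be told from 0.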

Other observations

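Genes that make or trim heparan sulphate, the co-receptor of FGF ligands, were tested in all 12 cases, with a median fold change of -0.03 between the lines and a range from -0.41 to 0.65. None passed the threshold by limma with Benjamini-Hochberg adjustment. *Ndst1*, an enzyme that N-sulphates heparan sulphate, was at the upper end of that range (SE 0.25, unadjusted p = 0.0247 by limma, adjusted p = 1.00, and 0.784 with the replicate block). It had 599.9, 498 and 561 normalized counts in EVX1-Δfs and 1135, 771 and 745.5 in Del#3, so its groups did not overlap, as those of 3.51% of all genes did not. *Sulf2*, a sulphatase acting outside the cell, had 1839.5 ± 316 and 1877 ± 264, and *Ugdh*, which makes a sugar precursor, had 1079.5 ± 237 and 1069 ± 315.

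*Etv5*, an ETS factor induced by ERK, had 1053, 1119 and 609.7 normalized counts in EVX1-Δfs and 1265, 829 and 812 in Del#3. As for *Spry4*, EVX1-Δfs replicate 3 was its lowest library. That library was the lowest for 6 of the 14 ERK-induced transcription factors tested and for 18.3% of all genes. The fold change of *Etv5* between the lines was 0.08 (SE 0.30).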
